A study of Homo sapiens with 5 samples.

Results

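The aminoacyl-tRNA synthetases are the enzymes that join each amino acid to its transfer RNA, and the mRNAs of 35 of them were followed in HEK293T cells with and without ascorbic acid (vitamin C). The members were taken by gene symbol from a count table of 28278 genes, and all 35 were present, 19 encoding cytosolic and 16 mitochondrial enzymes. All 35 passed the filter on low counts, among 15271 genes tested. HEK293T is an established human embryonic kidney line transformed with adenoviral and SV40 large T genes. The control group held 3 libraries of cells labelled wild type and the other group 2 libraries of the same line given ascorbic acid, with no dose in the labels. All cells were grown in DMEM with 10% serum. Treatment lasted 24 h where DNA methylation was to be tested and 36 h where RNA methylation was, with fresh medium every 6 h. Which time applies to these libraries is not labelled. Nothing in them says that the libraries of a group came from separate cultures, so p-values reflect library-to-library spread that may be technical.

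Each synthetase recognises its amino acid and the matching tRNAs, activates the amino acid with ATP and transfers it to the tRNA end, and several proofread the product. Human cells keep separate nuclear genes for most cytosolic and mitochondrial enzymes, while GARS1 and KARS1 each encode both forms. In the cytosol, EPRS1, IARS1, LARS1, MARS1, QARS1, RARS1 and KARS1 assemble on the scaffold proteins AIMP1, AIMP2 and EEF1E1 into the multisynthetase complex. Uncharged tRNA activates the kinase GCN2 (EIF2AK4), which phosphorylates eIF2 and raises translation of the transcription factor ATF4, and many cytosolic synthetase genes are known ATF4 targets.

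Total counts ran from 35106664 to 57212071 per library. Of the counts from 1 to 10, 71.3 to 75.9% were even in each library, so fewer fragments than counts may lie behind a value, which was not tested. The synthetases held 0.671 to 0.708% of all counts. VIM, an intermediate filament gene strongly expressed in HEK293 cells, had 821 ± 17.9 CPM (counts per 1000000 of the scaled library total; SD, n = 3) in the controls. Markers of other cell types were low: the summed level of 10 fibroblast markers was 17.6 to 18.6 CPM in controls and 30.2 to 34.1 CPM with ascorbic acid, and that of 8 keratinocyte and epithelial markers 2.95 to 3.23 and 4.66 to 4.86 CPM. In the comparison given further on, 8.53% of all tested genes were called higher and 5.76% lower. Of 4 tested fibroblast genes 3 were called higher, COL3A1 (1.28 ± 0.12), ACTA2 (0.68 ± 0.11) and COL1A1 (0.67 ± 0.11 on the log2 scale), and FAP had 0 counts in every library. Of 4 tested epithelial genes 3 were called higher, EPCAM (1.80 ± 0.42), KRT17 (1.80 ± 0.61) and SFN (1.17 ± 0.40), with KRT5 at 0. DESeq2 called 0 of these 4, but it returned no adjusted p for EPCAM, KRT17 and SFN, so this 0 says nothing about their calls. With edgeR the calls ended without ascorbic acid 2 for EPCAM, without any 1 library for KRT17 and without control 1, control 2 or ascorbic acid 2 for SFN. The 8 haematopoietic markers summed to 74.4 to 79.0 and 82.2 to 90.1 CPM, nearly all of it LCP1, the 1 of 4 tested markers called higher (0.17 ± 0.05), with CD3E and HBB at 0. The LCP1 call ended without control 2, control 3 or ascorbic acid 1 (adjusted p = 0.0768 to 0.345, edgeR), with DESeq2 and with the replicate block. Of the 6 genes listed as neural that HEK293 cells express, VIM among them, 3 were called higher, NEFM (0.75 ± 0.07), NES (0.72 ± 0.14) and MAP2 (0.85 ± 0.28), the last not without control 1 or ascorbic acid 1 nor with DESeq2 or cyclic loess. The sum of the 6 was 845 to 882 and 924 to 970 CPM. Most of it was VIM, with 806 to 841 and 872 to 915 CPM, which was not called (0.12 ± 0.04, edgeR adjusted p = 0.0583). The part of these genes in the synthetase results was not tested.

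Because many cytosolic synthetase genes are reported ATF4 targets, the promoters are shown for the core of the C/EBP-ATF response element, the sequence to which ATF4 dimers bind. RefSeq promoter windows (GRCh38.p14, 250 bases before to 50 after the gene start) were searched for TGATGNAA on both strands. Of the 35 members 30 matched the table by symbol, and AARS2, LARS1, VARS1, VARS2 and YARS1 are not in it. The core was present for 7 of 16 cytosolic genes and 1 of 14 mitochondrial genes (YARS2). By window the share was 33.3% of 21 cytosolic and 5.56% of 18 mitochondrial windows, against 2.03% of the windows of tested genes and 3.62% of all windows. The stricter form TGATGCAA, which is contained in the first, was found in 28.6% of the cytosolic windows and 0.553% of those of tested genes. The 7 cytosolic matches are shown 5′ to 3′ on the gene's strand with the core, on either strand, in capitals:

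AARS1 (chr16:70289666-70289713, minus strand): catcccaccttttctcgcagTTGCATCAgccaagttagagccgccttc

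CARS1 (chr11:3057418-3057445, minus strand): cgcgacttccggggcggcggTTGCATCA

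GARS1 (chr7:30594825-30594872, plus strand): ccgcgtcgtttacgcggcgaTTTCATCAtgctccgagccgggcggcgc

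IARS1 (chr9:92293698-92293730, minus strand): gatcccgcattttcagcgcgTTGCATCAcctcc

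MARS1 (chr12:57488044-57488071, plus strand): aagcgggaggccggttccggTTGCATCA

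NARS1 (chr18:57621815-57621842, minus strand): gccctcagatctacgctctcTGATGCAA

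TARS1 (chr5:33440947-33440974, plus strand): ggggttagggcgcctttcgaTTGCATCA

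In AARS1, GARS1 and IARS1 the core lay before the gene start, in CARS1 and MARS1 it spanned the start, and in NARS1 and TARS1 it lay just after it. CARS1, GARS1 and TARS1 each have a further window in the table, without the core. Of the 7 genes with the core 2 (NARS1 and TARS1) were called lower with ascorbic acid in the comparison given next, with a median log2 fold change of -0.08. Of the 9 cytosolic genes with a window and no core 5 were called lower, with a median of -0.13. Of all tested genes 5.76% were called lower, and 12.6% of those of at least 50 CPM. The difference between genes with and without the core was not tested. A match is a run of letters and not a shown binding site.

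In control cells the cytosolic mRNAs were the more abundant. Per kilobase of exon (GENCODE 29, GRCh38, all isoforms merged), the median control level was 60.7 CPM per kilobase for the cytosolic and 14.7 for the mitochondrial genes. EPRS1, which charges both glutamate and proline tRNAs, had the highest level at 108 CPM per kilobase (106.0 to 109.5 over the 3 controls), and IARS1, the isoleucyl enzyme, had 105 (102.5 to 109.2), so these neighbours in the order overlapped. Next came the mitochondrial isoleucyl enzyme IARS2 with 82.4, then SARS1 (79.6), FARSA (78.5), GARS1 (77.9), KARS1 (77.2) and RARS1 (75.3), and across the control libraries each of these overlapped its neighbour in the order, while IARS1 and IARS2 did not overlap. The other cytosolic genes ran from 30.1 (WARS1) to 68.4 (TARS1), above HARS1 (16.6) and CARS1 (6.03), the histidyl and cysteinyl enzymes. The lowest mitochondrial genes were VARS2 (5.35), CARS2 (4.46) and FARS2 (3.13), whose control libraries did not overlap one another. CARS1 and CARS2 also have the longest merged exons of their groups (10037 and 10460 bases), which lowers a level per kilobase. For each of the 13 amino acids with 1 cytosolic and 1 mitochondrial gene among the members, the cytosolic level was the higher, by 1.27-fold for isoleucine to 8.57-fold for serine with a median of 2.80-fold.

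**Figure D1:**
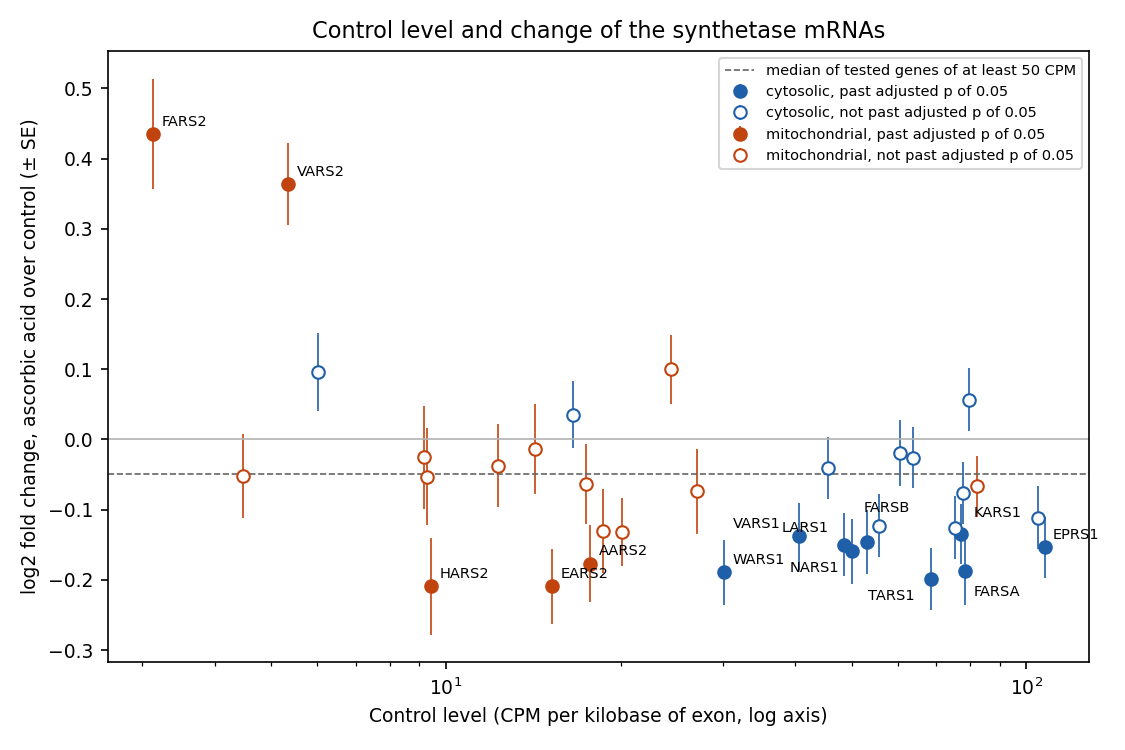
Control level (horizontal axis, CPM per kilobase of exon, log scale) against log2 fold change with ascorbic acid (vertical axis, error bars ± SE) for 19 cytosolic (blue) and 16 mitochondrial (red) synthetase genes, with filled symbols past an adjusted p of 0.05. The 9 cytosolic genes that passed lie below 0, and FARS2 and VARS2, at 3.13 and 5.35 CPM per kilobase, lie at 0.44 and 0.36.

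To see which synthetase mRNAs differ after ascorbic acid, the 2 treated libraries were set against the 3 controls. Cytosolic synthetase mRNAs were lower with ascorbic acid: 9 of 19 fell, with changes from -8.92% (KARS1) to -12.9% (TARS1), and 0 rose (edgeR quasi-likelihood test, Benjamini-Hochberg adjusted p at most 0.05 over all tested genes). Of all tested genes 5.76% were called lower and 8.53% higher, and of the 4707 genes averaging 50 CPM or more, as all 19 do, 12.6% were called lower and 4.65% higher. The median level was 285 CPM for the 19 genes and 101 CPM for those 4707, so shares of the latter are not matched for level. The median log2 fold change of the 19 genes was -0.13, against 0.0030 over all tested genes and -0.05 over genes of at least 50 CPM, and 16 of the 19 values were negative. The treated libraries lay below every control library in 15 of 19 genes, as in 20.4% of all tested genes (43.1% were separated in either direction) and 37.1% of those of at least 50 CPM. For 0 genes was the unadjusted p below 0.05 in the upward direction, and DESeq2 and limma-voom also called 0 higher, with 11 and 10 lower. In whole-culture RNA, fewer cells of a kind and less RNA per cell cannot be told apart.

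TARS1, the threonyl enzyme (chromosome 5, 33440696 to 33469539, GRCh38), had 393, 389 and 391 CPM in the controls and 332 and 349 CPM with ascorbic acid. Both treated libraries were well below the closely spaced controls, and the log2 fold change was -0.20 ± 0.04 (SE; edgeR adjusted p = 0.00251). WARS1, the tryptophanyl enzyme and also a gene induced by interferon gamma (chromosome 14, 100333788 to 100376805), had 197, 186 and 192 CPM against 167 and 169 CPM. The groups did not overlap, and it fell by 0.19 ± 0.05 on the log2 scale (edgeR adjusted p = 0.00564).

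FARSA and FARSB encode the alpha and beta subunits of the phenylalanyl enzyme, and both fell. FARSA (chromosome 19, 12922479 to 12934037) had 187, 185 and 201 CPM in the controls and 174 and 162 CPM with ascorbic acid, or -0.19 ± 0.05 on the log2 scale (adjusted p = 0.0100, edgeR). FARSB (chromosome 2, 222570536 to 222656337) had 183, 178 and 178 CPM against 164 and 161 CPM, or -0.15 ± 0.05 on the log2 scale (adjusted p = 0.0306, edgeR). In both genes each treated library lay under the lowest control. Of the genes that fell, WARS1, FARSB, KARS1 and NARS1 have a named pseudogene, and how reads shared with one were counted is not given in the sources used here.

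Of the 7 members of the multisynthetase complex 3 fell, all 7 values were negative and the median was -0.13, the same to 2 decimals as in the 12 cytosolic genes outside it, of which 6 fell. EPRS1 (chromosome 1, 219968601 to 220046658) had 597, 583 and 578 CPM in the controls and 525 and 528 CPM with ascorbic acid, or -0.15 ± 0.04 on the log2 scale (adjusted p = 0.0156, edgeR). LARS1, the leucyl enzyme, which also acts as a leucine sensor for mTORC1 (chromosome 5, 146113038 to 146182660), had 409, 391 and 383 CPM against 362 and 349 CPM, or -0.15 ± 0.04 (edgeR adjusted p = 0.0238). KARS1, the lysyl enzyme (chromosome 16, 75627474 to 75648643), had 314, 310 and 317 CPM against 286 and 285 CPM, or -0.13 ± 0.04 (edgeR adjusted p = 0.0349). In these 3 genes, too, the groups did not overlap. The complex's other members did not pass, with log2 fold changes of -0.13 ± 0.04 for RARS1, -0.11 ± 0.04 for IARS1, -0.04 ± 0.04 for MARS1 and -0.02 ± 0.05 for QARS1, of which MARS1 and QARS1 were positive with library totals and with cyclic loess.

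The last 2 cytosolic genes that fell were NARS1 and VARS1. NARS1, the asparaginyl enzyme (chromosome 18, 57600656 to 57622213), had 211, 203 and 200.0 CPM in the controls and 180.2 and 187 CPM with ascorbic acid, or -0.16 ± 0.05 on the log2 scale (adjusted p = 0.0188, edgeR). VARS1, the valyl enzyme (chromosome 6, 31777518 to 31795953), had 241, 238 and 262 CPM against 228 and 221 CPM, or -0.14 ± 0.05 on the log2 scale (adjusted p = 0.0485, edgeR). VARS1 was the closest to the threshold, and in both genes the treated libraries lay below every control. The cytosolic genes not yet named did not pass: YARS1 had -0.12 ± 0.04, GARS1 -0.08 ± 0.04 and AARS1 -0.03 ± 0.04 (positive with library totals and with cyclic loess), while HARS1 (0.04 ± 0.05), SARS1 (0.06 ± 0.05) and CARS1 (0.10 ± 0.06) were the 3 with positive values. CARS1 had 59.1, 59.4 and 63.0 CPM in the controls and 66.2 and 62.9 CPM with ascorbic acid, so its groups overlapped.

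**Figure D2:**
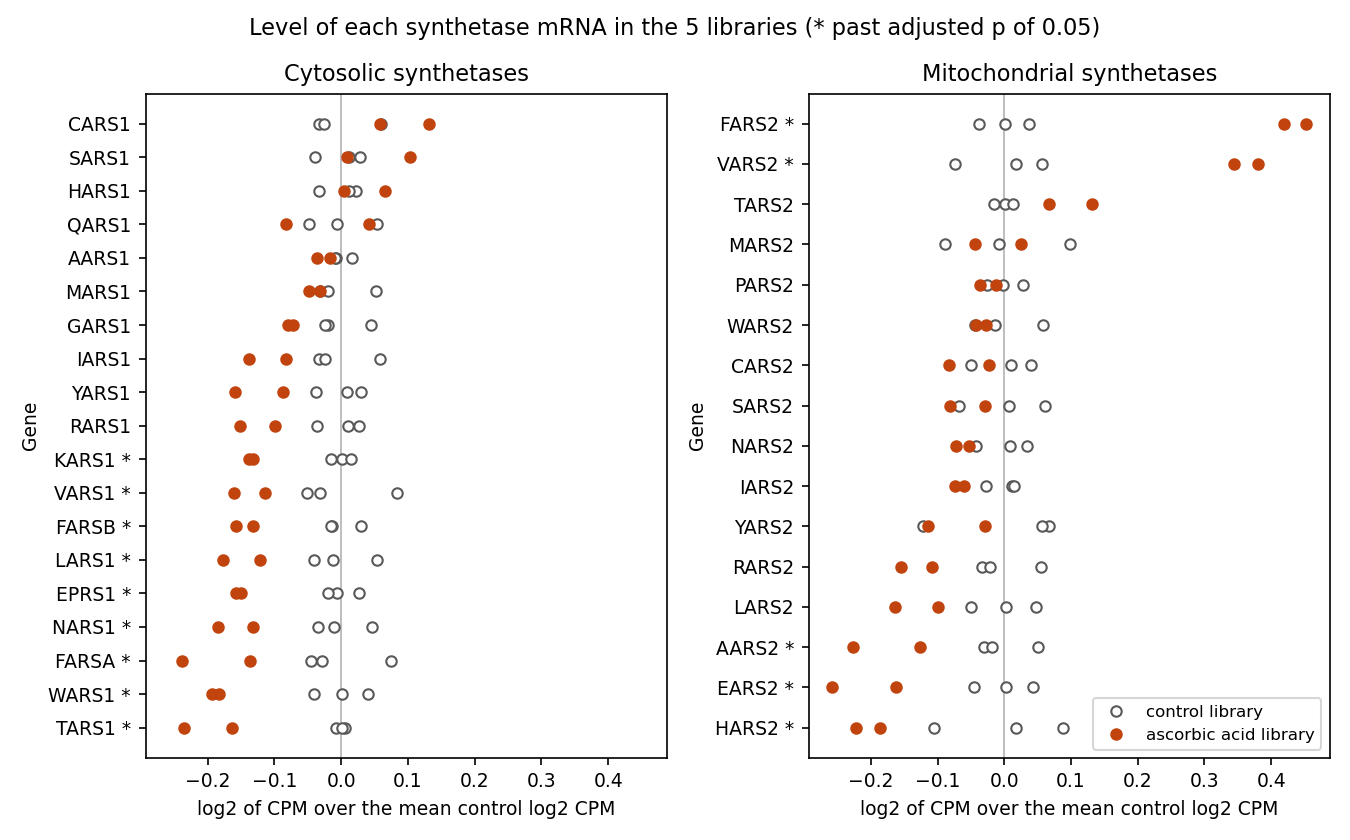
Level of each synthetase mRNA in each of the 5 libraries, as log2 of CPM relative to the mean of the controls (horizontal axis), for the 19 cytosolic (left) and 16 mitochondrial (right) genes ordered by fold change, with open circles for the 3 controls, filled circles for the 2 ascorbic acid libraries and stars for genes past an adjusted p of 0.05. In 15 cytosolic and 7 mitochondrial genes both treated libraries lie left of all controls, and in FARS2, VARS2 and TARS2 right of them.

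Decreases were found among reported ATF4 targets and other genes, and in both enzyme classes. Of 13 cytosolic genes commonly reported as ATF4 targets 6 fell, with a median log2 fold change of -0.12, and of the 6 others 3 fell, with a median of -0.13. The 9 class I enzymes had a median of -0.12 with 3 lower, and the 9 class II enzymes -0.13 with 5 lower. EPRS1, which joins a class I and a class II enzyme, belongs to neither count. The difference between these subgroups was not tested. Summed over the 19 genes, the cytosolic synthetases had 5992, 5815 and 5899 CPM in the controls and 5549 and 5424 CPM with ascorbic acid.

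The count of cytosolic genes called lower moved with single libraries and with scaling. It was 3 without control replicate 1, 3 without control replicate 2, 6 without control replicate 3, 6 without ascorbic acid replicate 1 and 4 without ascorbic acid replicate 2, 3 with library totals as the only scaling, 5 with a filter of 5 CPM, 6 with upper-quartile factors, 1 (TARS1) after cyclic loess, which removes trends with expression level, and 0 when tested against a fold of 1.2. The cyclic loess fit moved the median of genes of at least 50 CPM to -0.01 and that of the 19 genes to -0.07. TARS1 and WARS1 passed with any 1 library left out. The EPRS1 call ended without control 1 or 2 (adjusted p = 0.064 to 0.0702), the FARSA call without control 3 or ascorbic acid 2 (0.0567 to 0.0897), and the FARSB call without control 1, control 2, ascorbic acid 1 or ascorbic acid 2 (0.0507 to 0.130). The LARS1 call ended without control 1, control 2 or ascorbic acid 2 (0.0682 to 0.131) and the NARS1 call without control 1, control 2 or ascorbic acid 1 (0.0598 to 0.112). Those of KARS1 (0.0695 to 0.108) and VARS1 (0.0525 to 0.243) ended without any 1 of the 5 libraries, all by edgeR and with the direction kept. RARS1 passed with DESeq2, with its size factors and with a replicate block, and YARS1 with DESeq2, limma-voom, GC and length trends removed, or ascorbic acid 1 left out.

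**Figure D3:**
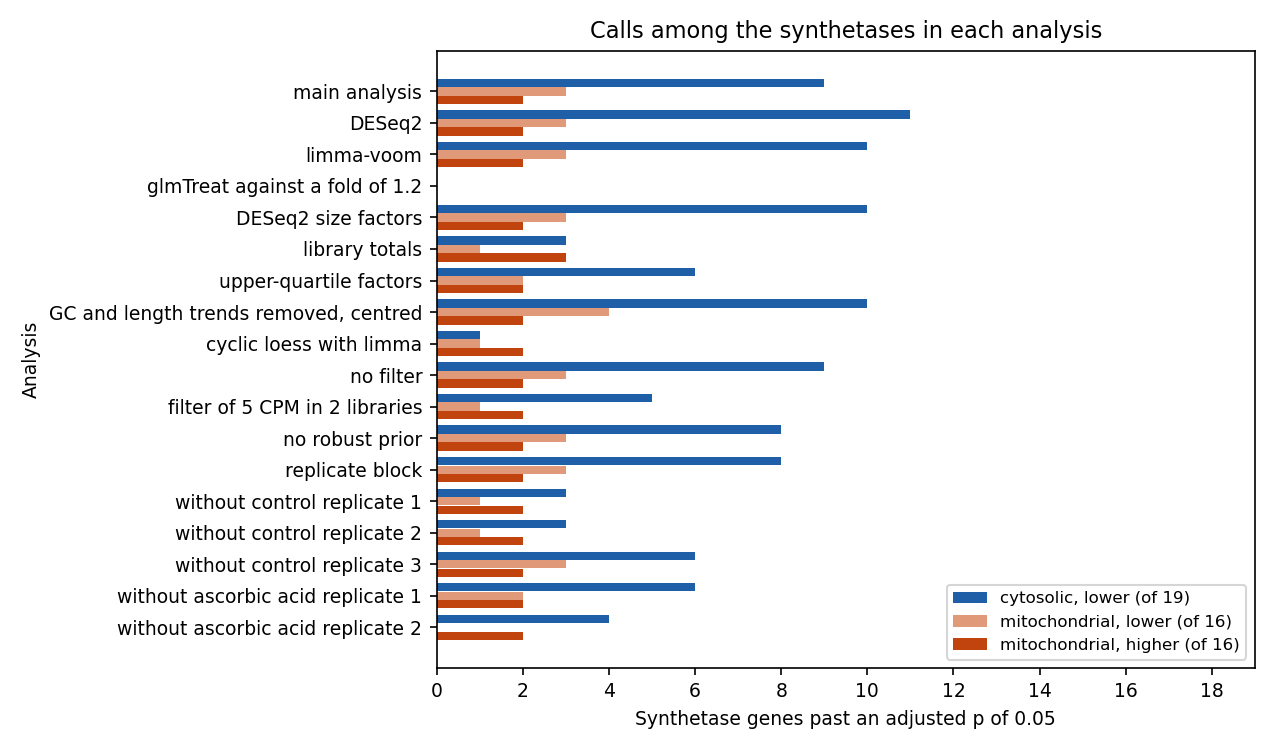
Number of synthetase genes past an adjusted p of 0.05 (horizontal axis) in the main analysis and in each of 17 alternatives (vertical axis), with bars for cytosolic genes called lower, mitochondrial genes called lower and mitochondrial genes called higher. Cytosolic genes called lower number 9 in the main analysis and range from 0 to 11, while mitochondrial genes called higher number 2 in all but 2 of the alternatives.

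Among the 16 mitochondrial synthetase mRNAs 2 rose, 3 fell and 11 did not pass, where 8.53% of all tested genes were called higher and 5.76% lower, and the median log2 fold change was -0.06. Groups did not overlap in 3 genes that were higher and 7 that were lower, where 22.6% and 20.4% of all tested genes did so. Among genes of at least 50 CPM these shares were 12% and 37.1%, and 4.65% were called higher and 12.6% lower. The 16 genes ran from 17.3 to 337 CPM, with a median of 48.6 CPM. The increases in FARS2 and VARS2 were the largest changes of the 35 genes.

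FARS2, the mitochondrial phenylalanyl enzyme, which works as a single chain (chromosome 6, 5261044 to 5829192), had 15.1, 15.5 and 14.7 CPM in the controls and 20.7 and 20.2 CPM with ascorbic acid. Both treated libraries lay above every control, and the gene rose 1.35-fold (log2 fold change 0.44 ± 0.08, edgeR adjusted p = 0.000327). VARS2, the mitochondrial valyl enzyme in the major histocompatibility region (chromosome 6, 30908242 to 30926459), had 42.9, 47.0 and 45.8 CPM against 58.8 and 57.4 CPM. It rose 1.29-fold (0.36 ± 0.06, edgeR adjusted p = 7.12e-05), and its groups did not overlap either. VARS2 shares 22.0% of its exon length with GTF2H4 on the same strand, and GTF2H4 itself had 0.09 ± 0.07 and did not pass. Both increases passed without any 1 of the 5 libraries and in every alternative except the test against a fold of 1.2 (adjusted p = 0.152 for FARS2 and 0.293 for VARS2, edgeR's glmTreat).

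The 3 decreases were in EARS2, HARS2 and AARS2. EARS2, which puts glutamate on both glutamate and glutamine tRNAs in mitochondria (chromosome 16, 23522014 to 23557731), had 87.5, 84.6 and 89.97 CPM in the controls and 78.0 and 73.0 CPM with ascorbic acid, or -0.21 ± 0.05 on the log2 scale (adjusted p = 0.00766, edgeR). HARS2, the histidyl enzyme (chromosome 5, 140691426 to 140699318), had 37.4, 35.6 and 32.7 CPM against 30.9 and 30.2 CPM, or -0.21 ± 0.07 (edgeR adjusted p = 0.0382). AARS2, the alanyl enzyme (chromosome 6, 44299654 to 44313326), had 78.9, 74.6 and 75.2 CPM against 69.8 and 65.1 CPM, or -0.18 ± 0.05 (edgeR adjusted p = 0.0274). Groups did not overlap in any of the 3. HARS2 stands head to head with HARS1, with which it shares 11.7% of its exon length on opposite strands, and 4.07% with ZMAT2 on the same strand, a gene that was also lower (-0.18 ± 0.05, edgeR adjusted p = 0.0156). The EARS2 call ended without ascorbic acid 2 (-0.17, adjusted p = 0.0651), the AARS2 call without control 1, control 2 or ascorbic acid 2 (0.0508 to 0.168) and the HARS2 call without control 1, control 2, ascorbic acid 1 or ascorbic acid 2 (0.0811 to 0.215). The AARS2 and HARS2 calls also ended with library totals, cyclic loess and the 5 CPM filter, and the HARS2 call with upper-quartile factors. The count of mitochondrial genes called lower was thus 1 without control 1, 1 without control 2, 2 without ascorbic acid 1 and 0 without ascorbic acid 2.

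Of the 11 mitochondrial genes that did not pass, TARS2, the threonyl enzyme, was the only one with a positive value. It had 99.6, 100.3 and 98.4 CPM in the controls and 109 and 104 CPM with ascorbic acid, so the groups did not overlap, but at 0.10 ± 0.05 on the log2 scale it missed the threshold (adjusted p = 0.178, edgeR). It passed when library totals were the only scaling (0.14, adjusted p = 0.0483). The leucyl enzyme gene LARS2 had -0.13 ± 0.05 and the arginyl enzyme gene RARS2 -0.13 ± 0.06. LARS2 passed with GC and length trends removed (-0.13, adjusted p = 0.0148). IARS2, the most abundant mitochondrial member, had -0.07 ± 0.04, YARS2 -0.07 ± 0.06 and NARS2 -0.06 ± 0.06. The other 5 lay between -0.05 (SARS2 and CARS2) and -0.01 (MARS2), with -0.04 for WARS2 and -0.03 for PARS2, and MARS2, WARS2 and PARS2 were positive with library totals. SARS2 shares 46.2% of its exon length with a same-strand gene model outside the table and 10.8% with MRPS12 on the opposite strand, and whether reads were counted by strand is not given in the sources used here.

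Set side by side, the cytosolic gene had the lower log2 fold change in 8 of the 13 amino acid pairs. The valyl pair was the farthest apart, with -0.14 for VARS1 and 0.36 for VARS2, followed by the threonyl pair with -0.20 for TARS1 and 0.10 for TARS2. The histidyl pair went the other way, with 0.04 for HARS1 and -0.21 for HARS2. For phenylalanine, both cytosolic subunit genes fell while FARS2 rose. For arginine (-0.13 and -0.13) and leucine (-0.15 and -0.13) the values were nearly equal. The differences within pairs were not tested.

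**Figure D4:**
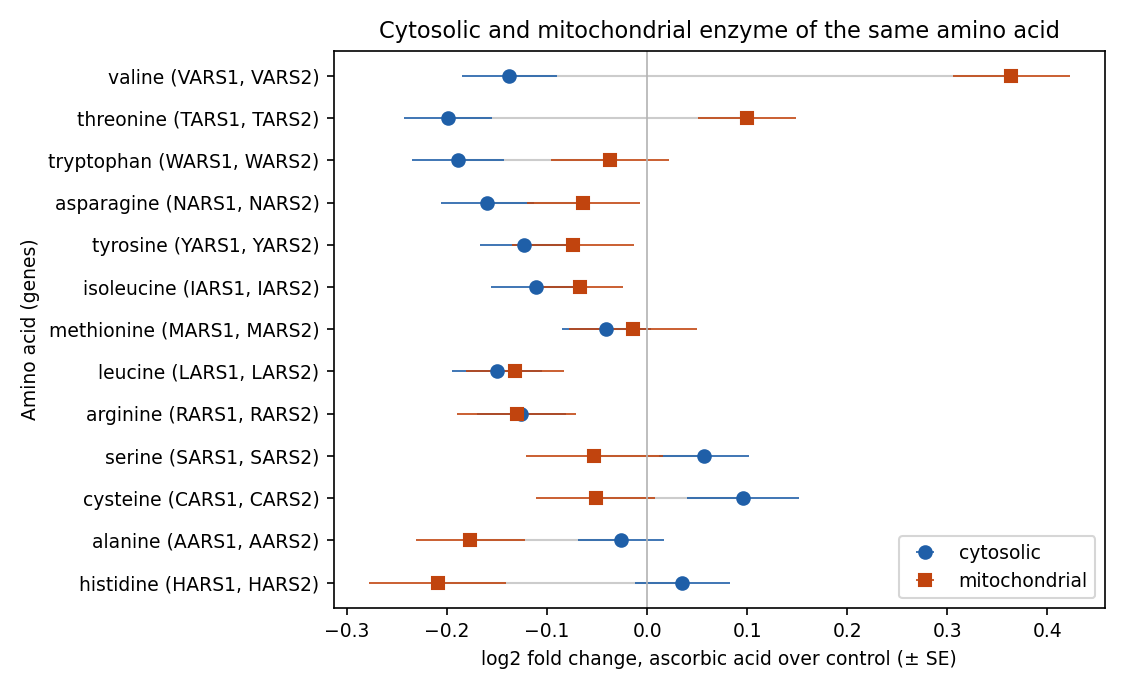
Log2 fold change with ascorbic acid (horizontal axis, error bars ± SE) of the cytosolic (blue circles) and mitochondrial (red squares) synthetase gene of each of 13 amino acids, ordered by their difference. The valyl pair is the farthest apart, at -0.14 and 0.36, and the histidyl pair differs most in the other direction, at 0.04 and -0.21.

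The 3 scaffold genes of the multisynthetase complex did not pass: AIMP1 had 66.2 ± 1.88 CPM (SD, n = 3) in controls and 66.0 ± 3.90 CPM (SD, n = 2) with ascorbic acid, and log2 fold changes were -0.0050 ± 0.06 for AIMP1, -0.02 ± 0.06 for AIMP2 and -0.01 ± 0.07 for EEF1E1. By edgeR 0 of the 3 passed, with 0 at an unadjusted p below 0.05 and 0 by DESeq2 or limma-voom. The signs of these values changed with the scaling. Of 6 tested genes that edit mischarged tRNA or modify its amino acid in mitochondria, edgeR called 0, with 1 higher and 1 lower at an unadjusted p below 0.05 and 0 by DESeq2 or limma-voom. GATC and QRSL1, subunits of the mitochondrial amidotransferase, had -0.12 ± 0.05 and -0.06 ± 0.06. The gene on the higher side, named after its value was seen, was the formyltransferase of initiator methionyl-tRNA, MTFMT (0.21 ± 0.08, edgeR adjusted p = 0.0577), which passed in 4 alternatives (0.0135 to 0.0449).

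Among 10 elongation factor genes 1 rose and 1 fell, near the shares of all tested genes (8.53% higher and 5.76% lower). TUFM, the mitochondrial factor that brings charged tRNA to the ribosome, rose by 0.15 ± 0.05 on the log2 scale from 305 ± 10.3 to 339 ± 19.4 CPM (edgeR adjusted p = 0.0258). EEF1B2, a nucleotide exchange subunit for the cytosolic counterpart, fell by 0.14 ± 0.05 (edgeR adjusted p = 0.0408). The TUFM call ended without control 1, control 2 or ascorbic acid 1 (0.0619 to 0.269) and the EEF1B2 call without control 1, control 3 or ascorbic acid 2 (0.103 to 0.246), and the latter also with library totals, upper-quartile factors, cyclic loess, the 5 CPM filter and the replicate block. Of 6 tested genes of mitochondrial initiation and release edgeR called 0, with 1 lower at an unadjusted p below 0.05, 0 by DESeq2 and 1 lower by limma-voom. The initiation factor gene MTIF2 had -0.03 ± 0.05 and the ribosome recycling factor gene MRRF -0.16 ± 0.06, and MRRF passed without control 3 and in 4 other alternatives (adjusted p = 0.0181 to 0.047).

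Of 24 tested tRNA maturation and export genes 2 rose and 4 fell, with a median of -0.05, where 8.53% of all tested genes were called higher and 5.76% lower. POP1, a core protein of RNase P, which trims the tRNA 5′ end, had the largest decrease of the list, with 78.1 ± 2.65 CPM (SD, n = 3) in controls and 58.5 ± 0.0927 CPM (SD, n = 2) after treatment, or -0.42 ± 0.05 on the log2 scale (adjusted p = 3.24e-06, edgeR). RTCB, the tRNA ligase gene, fell by 0.15 ± 0.05, while TSEN54 of the tRNA splicing endonuclease rose by 0.29 ± 0.07 and PRORP, the nuclease of mitochondrial RNase P, by 0.16 ± 0.05. The other subunit genes of mitochondrial RNase P were named after their values were seen. HSD17B10 was called lower (-0.15 ± 0.05, edgeR adjusted p = 0.0486), and TRMT10C had 0.01 ± 0.05. XPOT, the tRNA exporter, had 421 ± 7.80 CPM (SD, n = 3) and 416 ± 8.72 CPM (SD, n = 2) and did not pass (-0.02 ± 0.04). The TSEN54 call ended without ascorbic acid 1 (0.18, adjusted p = 0.155), the RTCB call without control 1 or ascorbic acid 2 (0.213 to 0.241), and the PRORP call without control 2, control 3, ascorbic acid 1 or ascorbic acid 2 (0.102 to 0.126). The RTCB call also ended with library totals, upper-quartile factors, cyclic loess and the 5 CPM filter, and the PRORP call with DESeq2 and the replicate block.

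Of 23 genes of RNA polymerase III and its factors, which transcribe tRNA genes, 2 rose and 1 fell, leaving 20, and the median was -0.02. These counts are near the shares of all tested genes (8.53% higher and 5.76% lower). The subunit gene POLR3E rose by 0.26 ± 0.05 and GTF3A, the 5S rRNA gene factor, by 0.17 ± 0.05, whereas POLR3A, the largest subunit, fell by 0.15 ± 0.05 (edgeR adjusted p = 0.000560, 0.0160 and 0.0278). The GTF3A call ended without control 1, control 2 or ascorbic acid 1 (0.0683 to 0.0803) and the POLR3A call without control 1, control 2 or ascorbic acid 2 (0.0867 to 0.135), and the latter also with library totals, cyclic loess and the 5 CPM filter.

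Of 16 genes for eIF2, its exchange factor, its kinases and phosphatases and the GCN2 partners, 4 rose and 1 fell, where 8.53% of all tested genes were called higher and 5.76% lower. EIF2AK4, the kinase GCN2, rose by 0.22 ± 0.05 on the log2 scale, with 77.4 ± 0.739 CPM (SD, n = 3) in controls and 90.03 ± 0.309 CPM (SD, n = 2) after treatment (edgeR adjusted p = 0.00350). IMPACT, an inhibitor of GCN2 activation, rose by 0.20 ± 0.05 and EIF2AK2, the double-stranded RNA kinase PKR, by 0.18 ± 0.05. EIF2S1, the eIF2 subunit that these kinases phosphorylate, fell by 0.22 ± 0.05, with 182 ± 8.24 CPM (SD, n = 3) in controls and 157 ± 0.879 CPM (SD, n = 2) after treatment (edgeR adjusted p = 0.00261). The EIF2AK4 and EIF2S1 calls held without any 1 library, whereas the IMPACT call ended without ascorbic acid 2 (0.15, adjusted p = 0.113) and the EIF2AK2 call without control 1, control 3 or ascorbic acid 2 (0.0866 to 0.314) and with the replicate block (0.0717). PPP1R15A, an eIF2 phosphatase subunit gene named after its value was seen, rose by 0.23 ± 0.08, a call that ended without control 2, control 3, ascorbic acid 1 or ascorbic acid 2 (0.0738 to 0.235) and with DESeq2, GC and length trends removed, cyclic loess or the replicate block. Phosphorylation was not measured. Against a fold of 1.2 (edgeR's glmTreat) every call named among these partners and pathways, HSD17B10 aside, ended except those of POP1 and NUPR1. HSD17B10 was not followed through the alternatives.

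ATF4 mRNA was among those that fell. ATF4 had 615 ± 13.7 CPM (SD, n = 3) in controls and 555 ± 28.4 CPM (SD, n = 2) after treatment, or -0.15 ± 0.05 on the log2 scale (adjusted p = 0.0255, edgeR), a call that ended without control 1, control 3 or ascorbic acid 2 (0.0573 to 0.189) and with cyclic loess, upper-quartile factors, library totals or the 5 CPM filter (0.0526 or above). ATF4 is controlled mainly in translation, which mRNA counts do not show. Of the 26 tested genes of this list, ATF4 included, 3 rose and 2 fell, leaving 21, and the median was -0.02; of all tested genes 8.53% were called higher and 5.76% lower. The other gene that fell, DDIT4, an mTORC1 inhibitor gene named after its value was seen, had -0.17 ± 0.06, and its call ended without any 1 of the 5 libraries (adjusted p = 0.0591 to 0.178, edgeR). NUPR1, a stress-induced chromatin protein gene with 28 to 40 counts in each control and 79 and 86 with ascorbic acid (1.28 ± 0.26), ATF3, a stress-induced transcription factor (0.33 ± 0.07), and SLC7A11, the cystine transporter gene (0.20 ± 0.06), rose, and the SLC7A11 call ended without control 1, control 3 or ascorbic acid 2 (0.0693 to 0.201) and with the replicate block (0.0574). ASNS, asparagine synthetase, also had few counts, 41 to 51 per library (1.08 ± 0.168 and 1.11 ± 0.0833 CPM), and had 0.06 ± 0.27. Whether its few counts reflect low expression or how reads were counted was not tested. DDIT3, the pro-apoptotic factor CHOP, had -0.22 ± 0.16 and shares 27.2% of its exon length with MARS1 on the opposite strand. In the interferon gamma list, which WARS1 is known to follow, edgeR called 0 of 6 tested genes, with 1 higher at an unadjusted p below 0.05 and 0 by DESeq2 or limma-voom. These 6 genes were low, with a median of 4.27 CPM. TAP1, a peptide transporter gene for antigen presentation, had 0.30 ± 0.11 (edgeR adjusted p = 0.0544), passing without control 3 and in 3 other alternatives (adjusted p = 0.029 to 0.0468).

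**Figure D5:**
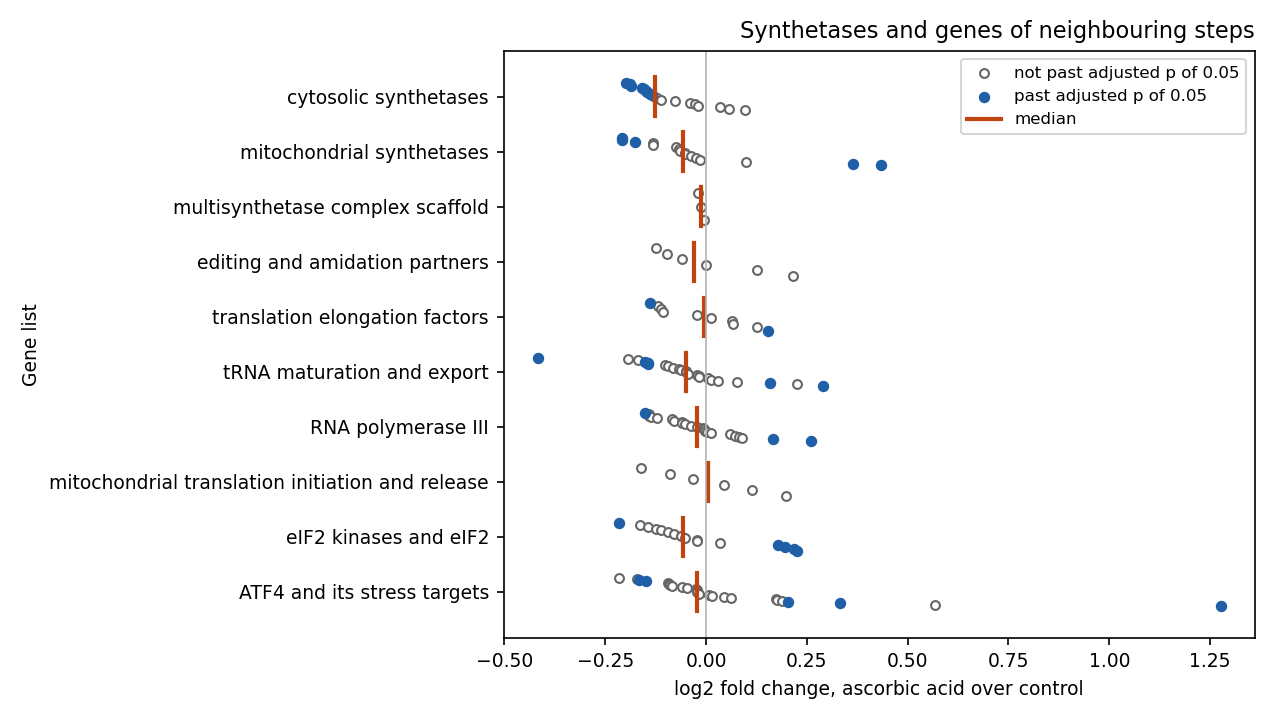
Log2 fold change with ascorbic acid (horizontal axis) of every tested gene of the cytosolic and mitochondrial synthetases and of 8 lists of neighbouring steps (vertical axis), filled where past an adjusted p of 0.05, with a bar at each list's median. The cytosolic synthetases have a median of -0.13, and the medians of the 8 lists lie between -0.06 and 0.01.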

How the data were processed

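Messenger RNA captured on beads was sequenced from 3 control and 2 ascorbic acid libraries. The deposited table holds whole-number counts of reads per gene. The submitters' processing notes name hg38 (GRCh38), featureCounts, STAR, DESeq2 and Trimmomatic 0.39. How strand and multiply mapping reads were handled, and the annotation, is not given in the sources used here, and 11 members have a named pseudogene, so their counts are uncertain. Columns were assigned by name ("con" as control, "vc" as vitamin C). No row lacked a gene name.

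Genes were filtered with filterByExpr, scaled with TMM factors (0.984 to 1.025, used in all CPM values) and tested with edgeR 4.0.16 (R 4.3.3), using the quasi-likelihood functions glmQLFTest and glmQLFit, the latter with its robust prior (two-sided, no covariates, Benjamini-Hochberg adjustment over 15271 genes, threshold 0.05). A standard error is the log2 change over the square root of F. Variation between replicates (edgeR's biological coefficient) was 4.6%. Replicates differed by more than counting noise (chi-square per degree of freedom 3.81 to 6.85). The fit was tested on simulated data.

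The members and lists were chosen with earlier results of these data known. Values are given for every member, per library for those past the threshold. Of each list up to 4 called genes by smallest p are named, or else the 2 highest, and always ATF4, ASNS, DDIT3, XPOT and the complex scaffold. TARS2, CARS1, DDIT4, PPP1R15A, MTFMT, HSD17B10, TRMT10C, VIM, ZMAT2, GTF2H4 and markers at 0 were chosen after their values were seen. Alternatives were DESeq2 1.42.0, limma-voom (limma 3.58.1), other scalings and filters, GC and length trends removed with mgcv 1.9.3, cyclic loess, a replicate block, glmTreat and each library left out. Positions, exon lengths and overlaps are from GENCODE 29 (GRCh38), to which 35 of 35 members and 26173 of 28278 symbols matched. Promoter windows are from RefSeq on GRCh38.p14. Protein sequences were not used here. A gene that the naming rule selects is not reported here.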

Additional observations from a re-analysis of the deposited data

How the results depend on the processing

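The main analysis was compared with 17 alternatives. The 2 mitochondrial increases passed in 16 of 17 alternatives, and the cytosolic decreases depended on scaling and on single libraries. Cytosolic genes called lower numbered 3 to 6 with 1 library left out, and mitochondrial genes called lower 0 to 3 and called higher 2. With a library left out the median log2 fold change ran from -0.14 to -0.11 for cytosolic and from -0.077 to -0.046 for mitochondrial genes. Against a fold of 1.2 (glmTreat) there were 0 cytosolic decreases, 0 mitochondrial decreases and 0 mitochondrial increases. With library totals there were 3 cytosolic and 1 mitochondrial decreases, with medians of -0.083 and -0.016. With the 5 CPM filter there were 5 and 1, with medians of -0.10 and -0.033, and with cyclic loess 1 and 1, with a cytosolic median of -0.066. The cause of these shifts was not tested. Of the values of single genes under an alternative, 1022 kept direction and side of the threshold, 189 lost the threshold, 22 gained it and 49 changed sign, and every sign change was in a gene that did not pass.

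The sign changes in log2 fold change were as follows. With library totals AARS1 had 0.016, MARS1 0.0017, QARS1 0.023, MARS2 0.029, PARS2 0.017, WARS2 0.0054, AIMP1 0.038, AIMP2 0.022, MTIF2 0.0099, XPOT 0.024 and EEF1E1 0.031. With upper-quartile factors MARS2 had 0.0025, AIMP1 0.011 and EEF1E1 0.0043. With GC and length trends removed AIMP1 had 0.049, MTIF2 0.0058, XPOT 0.016 and EEF1E1 0.047. With cyclic loess AARS1 had 0.036, MARS1 0.024, QARS1 0.042, MARS2 0.0028, AIMP1 0.022, MTIF2 0.0017, ASNS -0.15 and XPOT 0.050. With the 5 CPM filter QARS1 had 0.0060, MARS2 0.011, AIMP1 0.020, AIMP2 0.0043, XPOT 0.0066 and EEF1E1 0.014.

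With 1 library left out, the values that changed sign ran as follows: MARS2 from -0.056 to 0.045, AIMP1 from -0.073 to 0.054, QRSL1 from -0.090 to 0.015, MTIF2 from -0.096 to 0.021, ASNS from -0.058 to 0.17, EEF1E1 from -0.13 to 0.095, QARS1 from -0.083 to 0.035 and XPOT from -0.047 to 0.0021.

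The replicate numbers were also used as a block. Only 2 numbers are shared by the groups, and the deviations of same-numbered libraries correlated at -0.043 and 0.21. Control 3 and ascorbic acid 1, which differ in number, correlated at 0.217. The deviations of the 2 treated libraries mirror each other, so these correlations cannot decide whether libraries were paired. Nothing in the labels ties the numbers together, so the block was not taken as a pairing. With the replicate block 8 cytosolic genes were called lower, 7 of them among the 9 of the main analysis, with a median of -0.12, and mitochondrial calls stayed at 3 lower and 2 higher, with a median of -0.05. QARS1 had 0.0076 and AIMP1 0.011 with the block, and the calls of KARS1, VARS1, EEF1B2, PRORP, EIF2AK2, PPP1R15A, SLC7A11, DDIT4, LCP1, KRT17 and SFN ended, while RARS1 and MRRF passed. Over all genes, library totals gave 1712 higher and 389 lower calls, against 1303 and 879 in the main analysis.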
